A study of Mus musculus with 2 samples.

Results

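The genes described here are the mouse zinc finger protein genes whose symbol is Zfp followed by digits and at most 1 letter, as measured in clones D351 and D16 of mouse mesoangioblasts. They were taken from the array annotation by symbol alone, without the genes of chromosome 4 between Acer2 and Svbp, a condition that removed 1 probe set of 1 gene. The rule found 212 probe sets for 155 genes, out of 7542 genes named on the Affymetrix MG-U74B array, and it used no measured value. Mesoangioblasts are vessel-associated progenitor cells. Both clones came from dorsal aorta of C57BL6 embryos at embryonic day 9.5, kept as an explant for 5 days and cloned by limiting dilution in RPMI with 20% fetal calf serum over mitomycin C-treated embryonic fibroblasts. Each clone was then expanded on gelatin and hybridised as total RNA to 1 array, so every difference given here is between 2 RNA samples and was compared with no spread between cultures. In RNA of a whole culture, fewer cells that express a gene and less RNA per cell cannot be told apart.

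Most proteins of this family carry arrays of C2H2 zinc fingers, short folds in which a pair of cysteines and a pair of histidines hold a zinc ion and a few residues read DNA bases. Many also carry a KRAB domain, which recruits the corepressor Trim28 and through it histone methylation, and such proteins are known for silencing transposable elements and for guarding imprints. The family grew by tandem duplication, and its genes stand in clusters of related neighbours on several mouse chromosomes. A smaller number of Zfp genes encode unrelated proteins with zinc fingers that bind RNA, act in splicing or modify other proteins.

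Promoter stretches of Zfp genes are shown for chromosome 13, where 2 genes passed 2-fold towards D351 and lay near neighbours with the same pattern. The stretches come from RefSeq promoter windows of GRCm38.p6, read 5′ to 3′ on each gene's own strand. A window spans 250 bases before to 50 after the gene start, and each stretch has 40 bases on either side of the capitals. The capitals mark matches to a 12-letter pattern with 10 fixed letters, found in all 5 stretches, and any base at the fifth and the sixth position. The stretches also share letters next to the capitals that the pattern leaves out. It holds core letters of an element reported to bind ZNF143 in human cells, and it was chosen after these windows had been read.
Zfp456, chr13:67375781-67375872, minus strand: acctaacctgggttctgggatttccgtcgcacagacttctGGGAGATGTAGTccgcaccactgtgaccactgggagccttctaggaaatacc
Zfp429, chr13:67399787-67399878, minus strand: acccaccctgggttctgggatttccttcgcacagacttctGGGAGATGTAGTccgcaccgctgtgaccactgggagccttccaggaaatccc
Zfp874a, chr13:67451606-67451697, minus strand: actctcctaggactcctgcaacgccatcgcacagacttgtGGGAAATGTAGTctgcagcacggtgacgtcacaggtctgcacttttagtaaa
Zfp708, chr13:67081546-67081637, minus strand: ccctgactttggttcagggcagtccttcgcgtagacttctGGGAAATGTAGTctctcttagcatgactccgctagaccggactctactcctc
Zfp738, chr13:67683517-67683608, minus strand: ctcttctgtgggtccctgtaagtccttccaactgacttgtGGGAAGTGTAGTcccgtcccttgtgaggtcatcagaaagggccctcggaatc

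Searched on both strands, the pattern was present in windows of 20 of the 131 Zfp genes with a window (15.3%). It was present in 4.24% of the 6040 genes of the array with a window and in 2.08% of all 27025 genes with one. The 5 genes shown had to match, since the pattern was taken from them, and without them it was present in 15 of 126 Zfp genes (11.9%). Some genes have several windows, 22 of the 131 Zfp genes and 1281 of the 6040 array genes, and with the first listed window alone the shares were 13.7% and 4.01%. Without the genes shown, 2 of 5 Zfp genes of chromosome 13 matched, and 8 of 31 on chromosome 7 and 0 of 22 on chromosome 17. The whole windows of Zfp456 and Zfp429 were identical at 87.3% of aligned positions, those of Zfp429 and Zfp874a at 52.7%. On chromosome 17, Zfp948 and Zfp983 were at 61.8%, Zfp52 and Zfp948 at 50.1%, and Zfp52 and Zfp983 at 41.6%. The identity of unrelated windows was not computed. A match of letters is a description of the window and not evidence of a bound site.

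Zfp948 and Zfp983, neighbours on chromosome 17 with ratios below 0, shared another run. The capitals below mark the longest run of bases common to both windows, 17 bases long, which occurred in the windows of no other of the 27025 genes (2 genes in all).
Zfp948, chr17:21566917-21567013, plus strand: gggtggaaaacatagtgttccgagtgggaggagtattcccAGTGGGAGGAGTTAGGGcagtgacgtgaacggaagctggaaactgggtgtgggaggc
Zfp983, chr17:21650548-21650644, plus strand: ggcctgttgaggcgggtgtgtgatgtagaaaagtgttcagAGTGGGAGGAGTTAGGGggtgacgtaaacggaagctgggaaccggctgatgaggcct

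Signals are intensity values on a linear scale, as deposited. They summed to 646285 on the D351 array and 653854 on the D16 array, with medians of 16.9 and 16.6 over all probe sets. Where a gene had several probe sets, the one with the highest mean stood for it. A gene counted as measured when at least 1 array reached 16.8, here called the floor, which is the 50th percentile of all signals together. Markers of other cell types and of the cell cycle also differed between the clones. The 6 measured embryonic fibroblast markers, the cell type of the feeder layer, summed to 2454.2 in D351 and 997.2 in D16, and 5 of the 6 were at least 2-fold higher in D351. The 7 measured cell cycle genes summed to 315.4 in D351 and 1012.9 in D16, with 6 of 7 at least 2-fold lower in D351. Over all measured genes 9.5% were at least 2-fold higher and 8.58% at least 2-fold lower in D351. Of 7 smooth muscle markers 3 were measured, with sums over the 7 of 1561.7 in D351 and 955.1 in D16. Most of these sums was Cald1 (1357.6 in D351, 874.9 in D16). Mylk read 148.5 in D351 and 21.1 in D16, and Myh11 35.6 in D351 and 36.8 in D16. Of 3 endothelial markers 2 were measured (sums 65.7 in D351 and 72.6 in D16), and of 3 pericyte markers 1 (37.3 in D351 and 93.0 in D16). The 2 endothelial markers differed in opposite directions, Flt1 at 44.5 in D351 and 10.3 in D16 and Nrp2 at 18.7 in D351 and 54.8 in D16. The part of these cell states in the Zfp values was not tested.

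Most Zfp genes gave modest signals. Of the 155 genes, 111 (71.6%) were measured, against 65.2% of all 7542 named genes. Both arrays reached the floor for 89 of them, D351 alone for 13 and D16 alone for 9. The median signal over the 155 genes was 30.0 in D351 and 26.6 in D16, against 26.6 in D351 and 25.9 in D16 over all named genes. At or above 53.5, the pooled 75th percentile, there were 44 Zfp genes in D351 (28.4%) and 47 in D16 (30.3%), against 33.5% of all named genes in D351 and 33.7% in D16. The highest Zfp signals were 249.6 in D351 and 332.6 in D16, under the maxima over all named genes of 2389.6 in D351 and 1707.0 in D16. The other 44 genes stayed under the floor in both clones and have no ratio. Because signals of different probe sets also depend on their probes, these values place genes on the array's scale and do not rank transcript amounts.

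The 10 genes with the highest mean signal are named here. Zfp52 read 162.8 in D351 and 332.6 in D16, Zfp330 read 158.5 in D351 and 313.0 in D16, and Zfp334 read 215.4 in D351 and 241.3 in D16. Zfp330 encodes a nucleolar protein first known as an autoantigen. Zfp281, a regulator of pluripotency genes, read 249.6 in D351 and 149.6 in D16. Zfp931 read 109.0 in D351 and 267.7 in D16, and Zfp414 read 103.0 in D351 and 261.2 in D16. Zfp280c read 197.2 in D351 and 155.7 in D16, and Zfp518b 190.2 in D351 and 154.7 in D16. Zfp628 and Zfp580 were close between the clones, at 143.5 and 150.9 in D351 and 169.9 and 160.4 in D16. Of these 10 genes, 3 differed at least 2-fold and all 3 were lower in D351. Over all measured genes 18.1% differed at least 2-fold and 8.58% were at least 2-fold lower. With 10 genes the count is no result about bright Zfp genes.

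**Figure D1:**
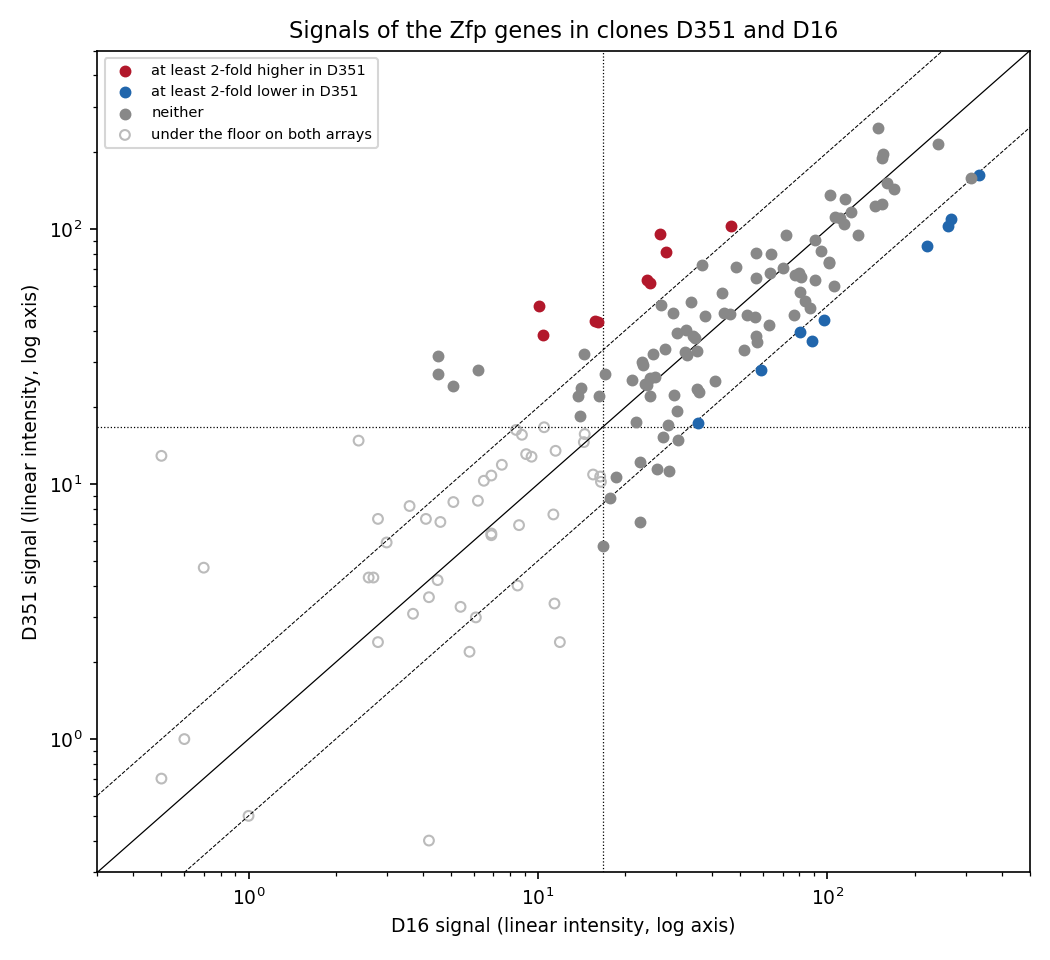
Signals of the 155 Zfp genes, D351 on the vertical and D16 on the horizontal axis, both as linear intensity on log axes, 1 point per gene. The solid line marks equal signals, dashed lines a 2-fold difference and dotted lines the floor of 16.8. Filled grey points beyond a dashed line had 1 array under the floor and a bound under 2-fold. Open grey circles were under the floor on both arrays and have no ratio. Most points lie between the dashed lines, with 9 genes past 2-fold on either side.

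Clone D351 had 9 Zfp genes at least 2-fold higher and 9 at least 2-fold lower than clone D16, after values under the floor were raised to it. These are 8.11% and 8.11% of the 111 measured genes. Over all 4916 measured genes, 9.5% were at least 2-fold higher and 8.58% at least 2-fold lower in D351, so the Zfp counts lay near the array's background. By probe set, 11 of 138 measured Zfp probe sets were at least 2-fold higher and 10 lower in D351, against 9.23% and 7.99% of 6920. The median log2 ratio of D351 over D16 was -0.0021 for the measured Zfp genes and -0.01 for all measured genes. Of the 111, 53 lay above 0, 57 below 0 and 1 at 0. The ratios of 59 Zfp genes (53.2%) were within 0.5 of 0 on the log2 scale, against 53.8% of all measured genes. The extremes were narrower, from -1.37 to 1.86 among Zfp genes and from -4.84 to 5.20 over all genes, a set with many more members. Where both arrays reached the floor, 5 of 89 Zfp genes were at least 2-fold higher and 9 lower, against 8.12% and 8.44% of 4065 genes.

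The Zfp gene with the largest ratio towards D351 was Zfp280d, of a subfamily named after the fly insulator protein suppressor of Hairy wing. It read 95.9 in D351 and 26.4 in D16 (3.63-fold higher). Its relatives on other chromosomes were also above 0 without reaching 2-fold, Zfp280b at a log2 ratio of 0.40 (94.9 in D351, 71.9 in D16) and Zfp280c at 0.34, which became -0.05 with the chromosome median subtracted. Zfp874a read 49.7 in D351 and 10.1 in D16, at least 2.96-fold higher because the D16 value was under the floor. A different probe set for Zfp874a read 45.3 in D351 and 10.5 in D16, and its ratio is likewise a bound (2.70-fold or more). Zfp704 read 81.3 in D351 and 27.7 in D16 (2.94-fold higher), but its other probe set read 26.5 in D351 and 46.5 in D16, at a log2 ratio of -0.81. The direction for Zfp704 therefore depends on the probe set.

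Zfp267 read 62.9 in D351 and 23.8 in D16 (2.64-fold higher), with 41.2 in D351 and 28 in D16 on its other probe set (log2 0.56). Zfp708, whose product is known to target a class of retroelements, read 61.2 in D351 and 24.4 in D16 (2.51-fold higher). Zfp9 read 103.1 in D351 and 46.3 in D16 (2.23-fold higher). These 3 genes reached the floor in both clones. The remaining 3 had D16 values under the floor, so their folds are bounds. Zfp672 read 43.7 in D351 and 15.7 in D16 (at least 2.60-fold), Zfp991 read 43.0 and 16.1 (at least 2.56-fold), and Zfp945 read 38.4 and 10.4 (at least 2.29-fold). Zfp991 rests on a probe set with the ending _f, a design shared with related transcripts.

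The 9 genes lower in D351 all reached the floor in both clones, and several were among the brighter members. Zfp948 read 85.9 in D351 and 221.5 in D16 (2.58-fold lower). Zfp414 was 2.54-fold lower and Zfp931 2.46-fold lower, at the signals given above. Zfp507 read 36.5 in D351 and 88.3 in D16 (2.42-fold lower). Zfp932, which is known to repress endogenous retroviruses in embryonic stem cells, read 44.0 in D351 and 97.4 in D16 (2.21-fold lower) on an _f probe set. Zfp961 read 28 in D351 and 59.0 in D16 (2.11-fold lower). The other 3 lay close to the limit. Zfp526 read 17.3 in D351 and 35.6 in D16 (2.06-fold lower), and Zfp579 read 39.5 in D351 and 80.7 in D16 (2.04-fold lower), with a log2 ratio of -0.56 on an _f probe set. Zfp52 was 2.04-fold lower.

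**Figure D2:**
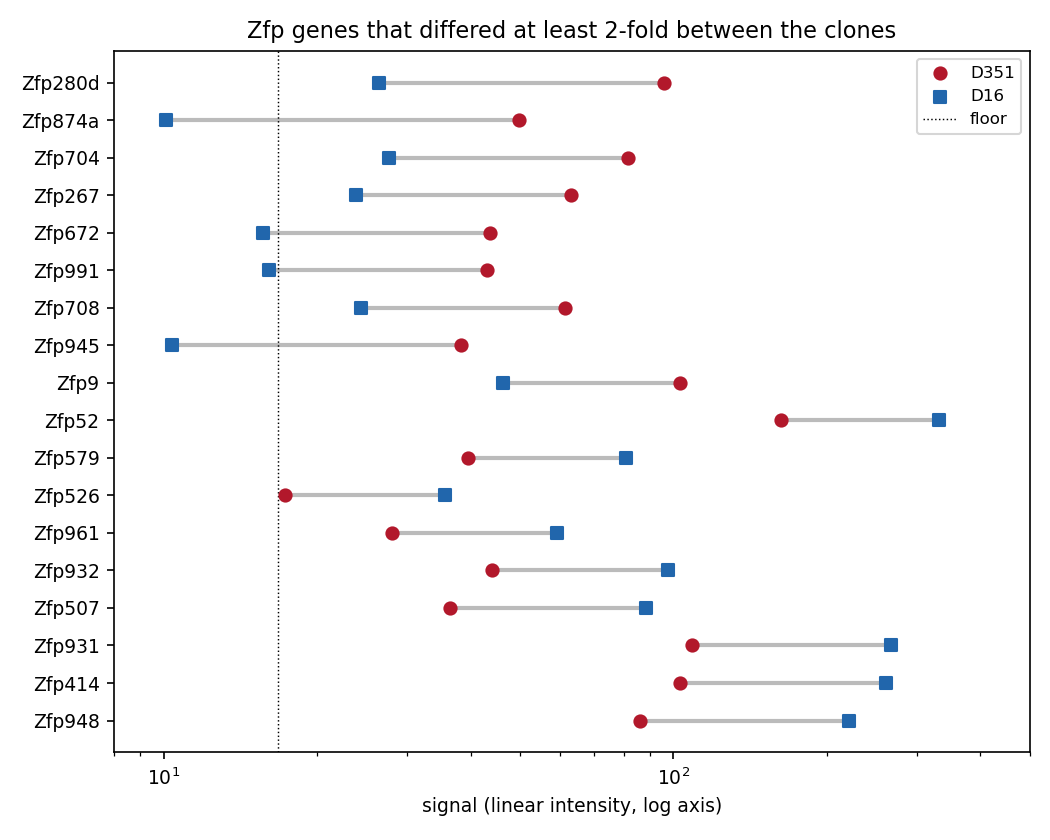
The 18 Zfp genes that differed at least 2-fold, 1 row per gene, ordered by ratio, with the signal of D351 (circles) and D16 (squares) as linear intensity on a log axis and the floor of 16.8 as a dotted line. The 9 upper genes are higher in D351, and 4 of them have a D16 value under the floor. The 9 lower genes are above the floor in both clones.

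Genes just outside the limit had nearly the same ratios. Zfp276 read 72.1 in D351 and 36.8 in D16 (1.96-fold higher), Zfp467 read 32.3 and 14.4 (at least 1.92-fold), and Zfp518a read 31.8 and 4.5 (at least 1.89-fold). Towards D16, Zfp330 was 1.97-fold lower in D351, Zfp760 read 14.9 in D351 and 30.4 in D16 (at least 1.81-fold lower), and Zfp106 read 48.8 in D351 and 87.1 in D16 (1.78-fold lower). With the floor at the 25th percentile (4.6), the log2 ratio of Zfp518a was at least 2.79, against at least 0.92 at the floor of 16.8. Zfp423 reached that lower floor on both arrays, with a log2 ratio of 2.18.

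Other probe sets of the same gene gave a measure of the error of a ratio. In 20 Zfp genes more than 1 probe set was measured, and their 2 brightest had the same sign in 11 (55.0%), against 771 of 1113 genes over the whole array (69.3%). The SD of the difference between the probe sets was 0.79 on the log2 scale for the Zfp genes and 0.71 for all genes. That corresponds to an SD of 0.56 and 0.50 for a single probe set. Zfp704, Zfp523 and Zfp334 differed by more than 1 between their probe sets. Zfp148 had 4 measured probe sets, all above 0, at log2 ratios of 0.19, 0.27, 0.76 and 0.38. The 3 probe sets of Zfp281 were also all above 0, at 0.74, 0.66 and 1.02. Of the 18 genes past 2-fold, 13 had 1 probe set and 4 had a further measured one, which lay in the same direction for 3. Probe sets of a gene share the arrays, so this comparison says nothing about differences between cultures.

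**Figure D3:**
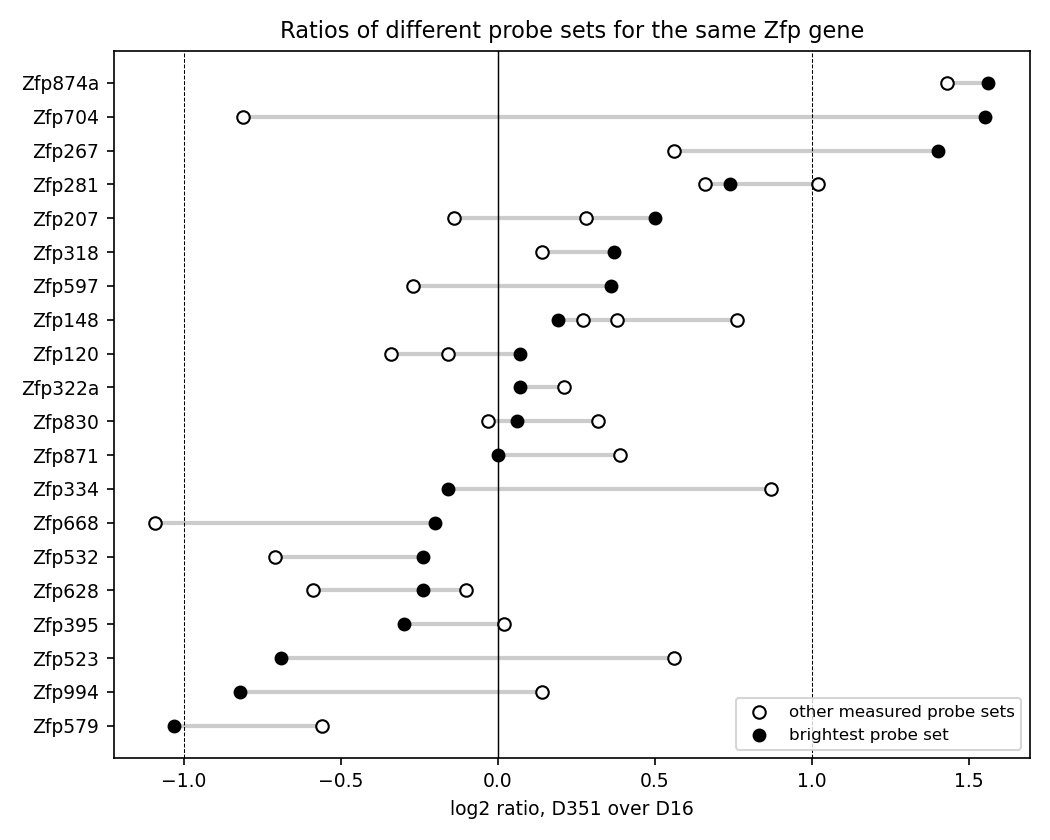
Log2 ratio of D351 over D16 for each measured probe set of the 20 Zfp genes with at least 2, filled for the brightest and open for the others, with dashed lines at 2-fold. The probe sets of Zfp874a lie close together at 1.56 and 1.43, and those of Zfp704 lie on opposite sides of 0 at 1.55 and -0.81.

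By chromosome, the Zfp genes of chromosomes 17 and 18 lay below 0, as did most other genes there. On chromosome 17, 13 of 15 measured Zfp genes were below 0 by their brightest probe sets, with a median log2 ratio of -0.65. Among the 13, Zfp871 read 70.3 in D351 and 70.4 in D16. Zfp523 and Zfp994 rested on _f probe sets, and their measured plain probe sets lay above 0 (log2 0.56 and 0.14). Of 196 other measured genes there, 64.8% were below 0 with a median of -0.25. All 5 measured Zfp genes of chromosome 18 were below 0 (median -0.59), as were 72.7% of 132 other genes (median -0.29). On chromosome 7, which held the most members, 12 of 21 measured Zfp genes were below 0 (median -0.08), against 65.1% of 281 other genes (median -0.23). On chromosome 9, 6 of 7 were above 0 (median 0.31), and on chromosomes 11 and 16 all 4 of 4 were above 0, at medians of 0.30 and 0.35. The other genes of chromosomes 9, 11 and 16 had medians of 0.17, 0.11 and 0.07. With each chromosome's median subtracted, 10 Zfp genes (9.01%) were at least 2-fold higher and 6 (5.41%) at least 2-fold lower in D351, against 9.19% and 7.81% of all measured genes.

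Zfp genes with at most 5 annotated genes between neighbours were treated as a cluster. There were 22 such clusters with 61 genes, and in 10 of the 15 clusters with at least 2 measured genes all ratios lay on 1 side of 0, in 6 of them below. With protein-coding genes alone counted between neighbours, there were 25 clusters with 78 genes, and 12 of 18 had all ratios on 1 side. Many of these clusters had only 2 measured genes, and some ratios counted were near 0, such as Zfp623 (110.4 in D351, 110.6 in D16). The share expected of unlinked genes was not computed, so these counts are no result about clusters. Related neighbours can share sequence that probes detect, and how much the probe sets of a cluster read each other's transcripts was not tested.

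A run of Zfp genes with ratios below 0 stood on chromosome 17. Counted over protein-coding genes, 10 Zfp genes lay in a cluster of Zfp160, Zfp677, Zfp52, Zfp948, Zfp983, Zfp760, Zfp229, Zfp943, Zfp947 and Zfp994. All 7 measured members were below 0, with a median log2 ratio of -0.82 and a range from -1.37 to -0.14. Summed over the 10 genes, the signal was 457.6 in D351 and 858.3 in D16. Zfp983 read 11.3 in D351 and 28.4 in D16, a log2 ratio of at most -0.76, and Zfp760 had at most -0.86. Zfp994 read 59.8 in D351 and 105.5 in D16 (log2 -0.82) on an _f probe set, with 20.1 in D351 and 18.2 in D16 (log2 0.14) on a plain one. Zfp160 (22.1 in D351, 24.3 in D16) and Zfp677 (81.9 in D351, 95.2 in D16), at the start of the run, were close to equal. With all annotated genes counted, the middle of the run, Zfp52 to Zfp229, remained a cluster with 4 of 4 measured genes below 0 (median -0.94). The next Zfp gene along the chromosome, Zfp945, was at least 2.29-fold higher in D351.

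Farther along chromosome 17, Zfp955a, Zfp81 and Zfp414 formed another cluster with all 3 ratios below 0 (median -0.65). Zfp955a read 11.5 in D351 and 25.8 in D16, and Zfp81 read 19.3 in D351 and 30.2 in D16. A pair on chromosome 8, Zfp617 and Zfp961, was also below 0, at log2 ratios of -0.44 and -1.08.

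The chromosome 13 cluster held ratios in both directions. It ran over 9 genes from Zfp456 to Zfp273, of which 4 were measured. Its first 3 genes read higher in D351, with Zfp456 at 12.9 in D351 and 0.5 in D16, Zfp429 at 14.8 in D351 and 2.4 in D16, and Zfp874a past 2-fold. Zfp456 and Zfp429 were under the floor in both clones and have no ratio there. With the floor at the 25th percentile their log2 ratios were at least 1.49 and at least 1.69. Farther on, Zfp87 read 17 in D351 and 28.2 in D16 (log2 -0.73), Zfp729b 17.5 in D351 and 21.8 in D16 (-0.32), and Zfp738 45.2 in D351 and 56.1 in D16 (-0.31). Among these lay 3 genes under the floor in both clones that read higher in D351: Zfp748 (16.3 in D351, 8.4 in D16), Zfp493 (8.2 in D351, 3.6 in D16) and Zfp273 (8.6 in D351, 6.2 in D16). At the 25th percentile floor their log2 ratios were 0.96, at least 0.83, and 0.47. Zfp708, which precedes the cluster with more genes between, was higher in D351. The stretches printed above show that Zfp738, below 0, carried the same 12-letter pattern as the 4 genes with higher readings in D351.

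Of the 11 measured Zfp genes with the pattern, 3 are genes it was taken from, and both genes past 2-fold, Zfp708 and Zfp874a, are among these 3. The other 8 had a median log2 ratio of 0.21, with 6 above 0, 2 below and 0 past 2-fold. Over all measured genes 2397 of 4916 lay above 0 and 18.1% were past 2-fold. Among the 8, Zfp180 (0.02), Zfp692 (0.10) and Zfp74 were close to equal. The 80 measured Zfp genes with a window but no match had a median of -0.04, with 37 above 0 and 42 below. Of those 80, 4 were at least 2-fold higher and 9 lower in D351. With 8 genes these counts are no result about the pattern. Many genes with the pattern are neighbours and were not independent.

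**Figure D4:**
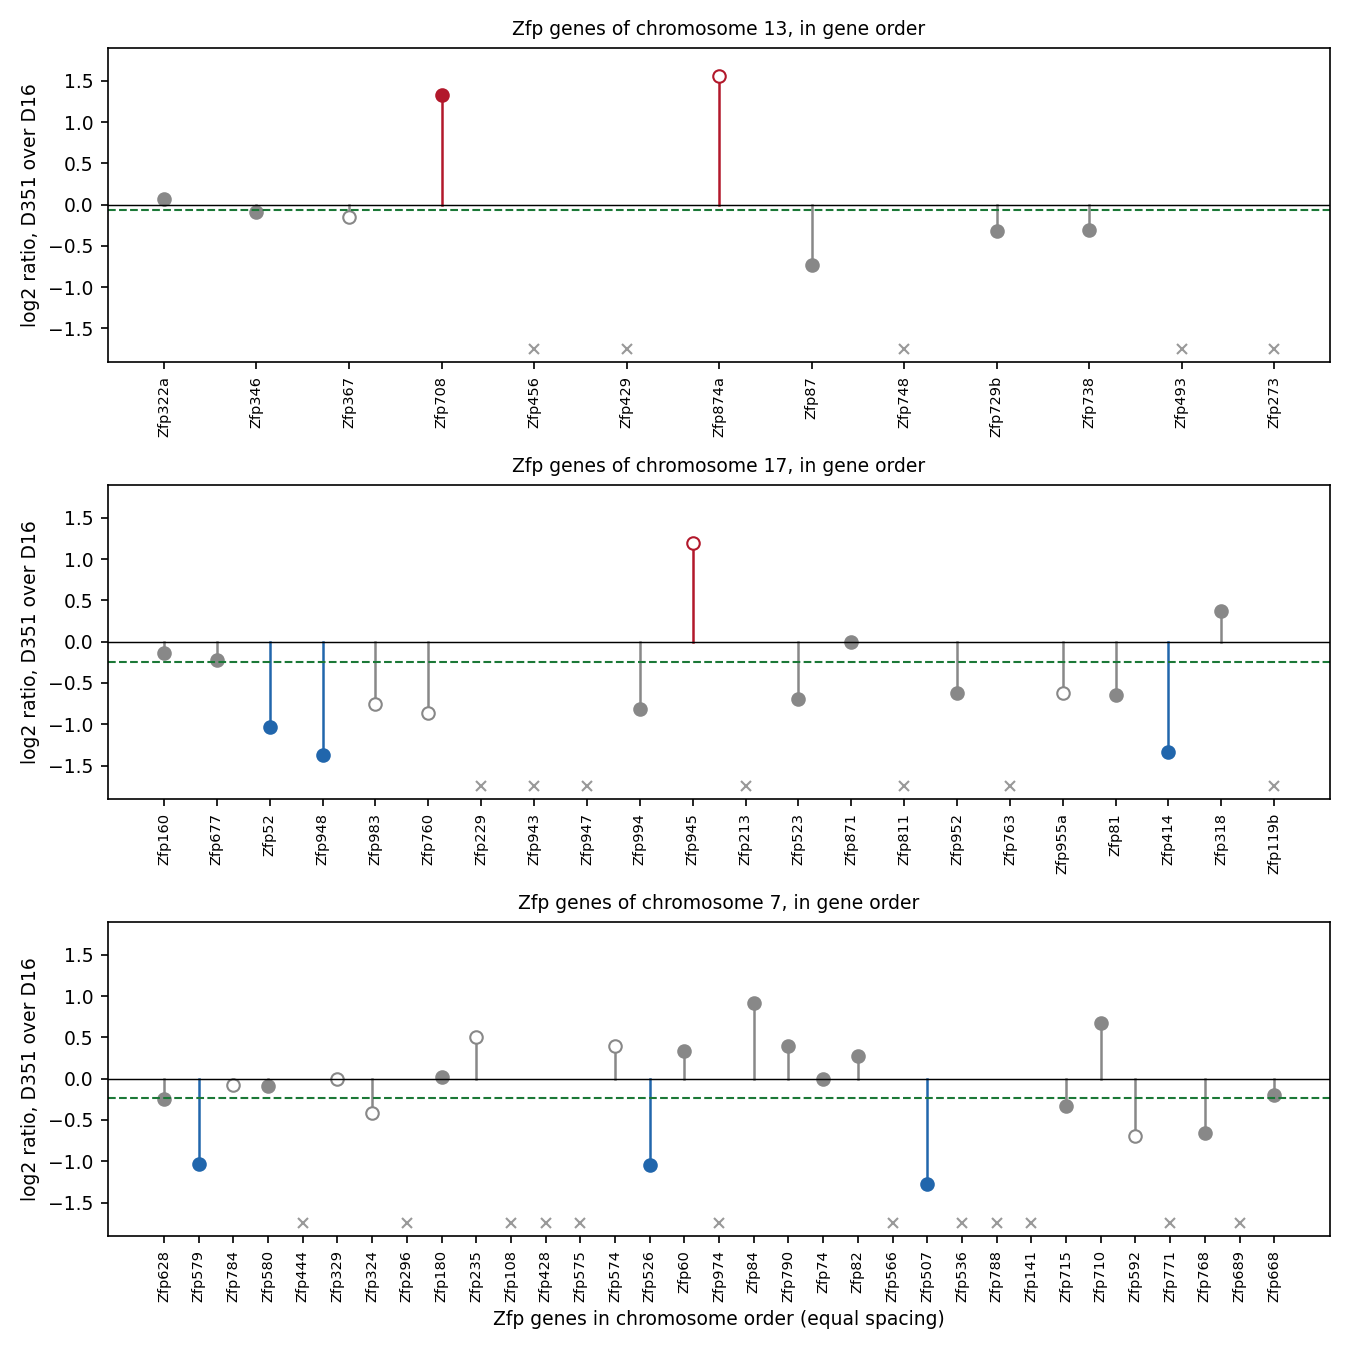
Log2 ratio of D351 over D16 for the Zfp genes of chromosomes 13, 17 and 7 in gene order, at equal spacing. Filled points reached the floor on both arrays, open points are bounds, crosses at the bottom mark genes under the floor on both, and the dashed line is the median of the other measured genes of that chromosome. Each gene is shown by its brightest probe set. On chromosome 17, 13 of 15 ratios lie below 0, of which Zfp523 and Zfp994 lie above 0 on plain probe sets. On chromosome 13 the 2 ratios past 2-fold are those of Zfp708 and Zfp874a.

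On chromosome 4, outside the stretch left out by rule, Zfp991, Zfp982 and Zfp984 stood together when protein-coding genes alone were counted. Zfp991 and Zfp984 were above 0, Zfp984 at 24.2 in D351 and 5.1 in D16 (log2 at least 0.53), and Zfp982 read 15.7 in D351 and 14.5 in D16, under the floor. The 3 other measured genes within 10 protein-coding genes of them were all below 0, with a median of -0.66. On chromosome 7, Zfp84, Zfp790, Zfp74, Zfp82 and Zfp566 formed a cluster by the same count, and 3 of 4 measured members were above 0. Zfp84 read 50.2 in D351 and 26.6 in D16 (log2 0.92), and Zfp74 was equal (90.6 in D351, 90.7 in D16).

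The role lists below hold few measured genes, and with 18.1% of all measured genes past 2-fold in either direction, their counts past 2-fold are no result about a list. Genes that act in mesoderm, fat and neural lineages lay on both sides of 0. Of 13 listed, 10 were on the array and 7 were measured, with a median log2 ratio of 0.56, 1 at least 2-fold higher (Zfp704, subject to its probe sets) and 0 lower. Zfp423, a cofactor of BMP-activated Smads and of Ebf1 that marks fat cell precursors, read 28.1 in D351 and 6.2 in D16 (at least 1.67-fold). Its close relative Zfp521 read 41.9 in D351 and 63.0 in D16 (log2 -0.59). Zfp467, which favours fat over bone differentiation in stromal cells, was at the at least 1.92-fold given above, on an _s probe set, while its other probe set stayed below the floor (9.2 in D351 and 6.8 in D16). Zfp609 read 71.2 in D351 and 48.4 in D16 (log2 0.56), Zfp462 read 73.4 in D351 and 101.5 in D16 (-0.47), and Zfp395 read 125.4 in D351 and 154.1 in D16 (-0.30). Zfp503, Zfp536 and Zfp358 were under the floor in both clones.

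Among genes tied to pluripotency, imprinting and retroelement silencing, 6 of 11 listed were on the array and 5 were measured. Zfp708 was at least 2-fold higher and Zfp932 at least 2-fold lower in D351. Zfp281 was 1.67-fold higher in D351 on an _f probe set. Zfp445, which maintains imprints, read 104.2 in D351 and 114.4 in D16 (log2 -0.13). Zfp809, which silences murine leukaemia virus in embryonic stem cells, read 26.0 in D351 and 24.3 in D16 (0.10). Zfp296 was under the floor in both clones.

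Zfp genes that act on RNA or modify other proteins lay on both sides of 0. Of 12 listed, 6 were on the array and 5 were measured, with a median log2 ratio of 0.04 and 0 past 2-fold, against 18.1% of all measured genes. The widest gap was that of Zfp106, an RNA-binding protein, at 48.8 in D351 and 87.1 in D16 (log2 -0.84). Zfp451, a SUMO ligase, read 24.4 in D351 and 23.8 in D16. Zfp346, which binds double-stranded RNA, read 33.2 in D351 and 35.4 in D16, and Zfp830, known from early embryos and splicing, read 26.3 in D351 and 25.3 in D16. Zfp207, a microtubule-binding partner of the checkpoint protein Bub3, read 80.2 in D351 and 56.7 in D16 (log2 0.50) on an _f probe set, with 0.28 and at most -0.14 on others. The ubiquitin ligase Zfp91 was under the floor in both clones.

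Of 12 listed factors that act at promoters of many genes, 8 were on the array and all 8 were measured. Their median log2 ratio was 0.25, with 0 past 2-fold, a count that 18.1% over all measured genes leaves near background. Zfp148, also known as ZBP-89, read 130.8 in D351 and 115.0 in D16. Zfp263 read 27.0 in D351 and 17.1 in D16 (log2 0.66), and Zfp219, a partner of Sox9, read 51.6 in D351 and 33.7 in D16 (0.61). Zfp217 read 40.3 in D351 and 32.5 in D16 (0.31), and Zfp318 read 55.9 in D351 and 43.2 in D16 (0.37). Zfp335 read 65.8 in D351 and 77.0 in D16 (-0.23), Zfp664 read 63.1 in D351 and 90.7 in D16 (-0.52), and Zfp592 read 15.3 in D351 and 27.1 in D16 (at most -0.69).

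The corepressor machinery of KRAB zinc finger proteins was represented by 13 of 29 listed genes, of which 12 were measured. Trim28 itself and Setdb1 were not among the 13, so the values do not cover them. The 12 measured genes had a median log2 ratio of -0.32, with 9 of 12 below 0, 1 at least 2-fold higher and 1 at least 2-fold lower in D351. These 2 are 16.7% of the 12, near the 18.1% over all measured genes. Over all measured genes 2493 of 4916 lay below 0, and with 12 genes the count below 0 is no result about the machinery. Atrx, a chromatin remodeller that acts at silenced repeats, read 125.6 in D351 and 53.3 in D16 (2.36-fold higher). Suv39h2, a histone H3 lysine methyltransferase, read 2.1 in D351 and 34.7 in D16 (at least 2.07-fold lower). Cbx5, which encodes heterochromatin protein HP1 alpha, read 55.3 in D351 and 98.6 in D16 (log2 -0.83). The HUSH subunits Mphosph8 and Pphln1 were at -0.41 and -0.43, Morc3 at -0.59 and Morc2a at -0.07. Atf7ip, a partner of the methyltransferase Setdb1, read 211.1 in D351 and 174.3 in D16 (0.28).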

How the data were processed

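Each probe set has 1 linear intensity for each array in the table the authors deposited. The software, background correction and presence calls are not given in the sources used here. Both columns had the same mean, 40.0, after trimming 2% at each end. The array has 12411 probe sets that are not controls, and 10581 of them have exactly 1 symbol in GEO's platform annotation. Symbols, chromosome and gene order followed RefSeq (GRCm38.p6), which all 155 Zfp genes matched. Of the 212 Zfp probe sets, 32 had an ending other than _at, which marks shared or relaxed designs.

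Values under the floor (16.8) were raised to it before taking the log2 ratio of D351 over D16, and a ratio with 1 array under it is a bound. With 1 array per clone no p-value, SD between cultures or interval was computed, and the number of arrays limits the precision. The members and lists were chosen with earlier results of these data known. Named genes are those past 2-fold, the 10 brightest, the 3 on each side of each limit, those with several measured probe sets and those of the role lists; others illustrate a cluster and were chosen after their values were seen. Alternatives were other scalings (common median, quantile, loess with span 0.3), a lower floor of 4.6 (25th percentile) and a higher one of 53.5 (75th), folds of 1.5 and 3, a minimum difference, other rules for probe sets, and chromosome medians. Protein sequences were not used here, so no split by KRAB domain was made. The calculation was tested on simulated data. Python 3.11.15, numpy 2.4.6, pandas 2.3.3, statsmodels 0.14.6, biopython 1.88 and matplotlib 3.10.9 were used.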

Additional observations from a re-analysis of the deposited data

How the results depend on the processing

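The counts of Zfp genes past 2-fold depended on the floor and the size rule. With the floor at the 25th percentile, 16 of 145 measured Zfp genes were higher and 17 lower in D351. These are 11% and 11.7%, against 12% and 11.5% of all genes measured at that floor. With the floor at the 75th percentile, 55 Zfp genes were measured, 0 higher and 4 lower (7.27%). Over all genes measured at that floor the shares were 7.12% higher and 6.35% lower. Where both arrays had to reach the floor, 5 of 89 were higher and 9 lower, against 8.12% and 8.44% of all such genes. A 1.5-fold rule gave 19 higher (17.1%) and 26 lower (23.4%), against 19.3% and 20.4% of all measured genes. A 3-fold rule gave 1 higher and 0 lower, against 3.6% and 2.79%. Without the genes of clusters of 3 or more Zfp genes, a setting added after the data were seen, 8 of 86 were higher and 5 lower. Over all measured genes without those clusters, 9.53% were higher and 8.55% lower. These settings change the number of genes or the limit by construction. The counts under the other settings stayed within 1.5 times, and the median log2 ratio ranged over all settings from -0.13 to 0.07 for the Zfp genes and from -0.39 to -0.24 for the corepressor genes. Of the 18 genes past 2-fold, 7 passed it in every one of the scaling, floor, probe set and chromosome settings that gave them a ratio (Zfp414, Zfp931, Zfp948, Zfp672, Zfp874a, Zfp945 and Zfp991). Zfp414, Zfp931 and Zfp948 had a ratio in all 9 of these settings. Zfp672, Zfp874a and Zfp945 had one in 7, and Zfp991 in 6. The higher floor and the rule that both arrays reach the floor gave these bounds no ratio, so they were not tested there. Among the 57 named genes, 463 of 480 recomputed ratios moved by less than the SD of a probe set (0.50), and none of the 18 genes changed sign. On plain _at probe sets, Zfp523 and Zfp994 did (0.56 and 0.14, against -0.69 and -0.82), and Zfp334 did with the median over probe sets (0.35, against -0.16). The other sign changes were in Zfp120, Zfp280c, Zfp451, Zfp532, Zfp580, Zfp809, Zfp830 and Zfp871, whose ratios lay within 0.5 of 0, and in Zfp668. Zfp668 had a log2 ratio of -0.20 on an _r probe set and 0.02 with the chromosome median subtracted. On its plain probe set it read 22.4 in D351 and 47.6 in D16 (-1.09, 2.12-fold lower). No paired analysis was possible because each clone has 1 array.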

Other observations

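Other zinc finger families on the array can be set beside the Zfp genes as values. Of 23 Zbtb genes, which pair zinc fingers with a BTB domain, 17 were measured, 11 of them above 0 with a median log2 ratio of 0.24. Zbtb4, which binds methylated DNA, read 57.1 in D351 and 18.9 in D16 (3.02-fold higher), and Zbtb10 read 50.7 in D351 and 23.6 in D16 (2.15-fold higher). Of the 17 measured Zbtb genes 11.8% were at least 2-fold higher and 0 at least 2-fold lower in D351. Over all measured genes the shares were 9.5% and 8.58%, so with 17 genes these counts are no trait of the family. The measured Klf and Sp genes (7), Zc3h genes (8), Zkscan and Zscan genes (5) and Zdhhc palmitoyltransferase genes (12) held 0 past 2-fold. Over all measured genes 18.1% were past 2-fold, and each of these families has few measured genes. Sp1 read 718.5 in D351 and 862.7 in D16, and Klf6 read 85.0 in D351 and 79.3 in D16.

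Of the measured Trim genes, the family of the KRAB corepressor Trim28, a larger share was past 2-fold. Of 18 measured, 5 were at least 2-fold higher and 5 at least 2-fold lower in D351 (55.6% of them, against 18.1% of all measured genes). Trim34a read 121.9 in D351 and 21.7 in D16 on an _f probe set, and Trim12c read 120.3 in D351 and 32.8 in D16. Trim30d, at 87.8 in D351 and 330.3 in D16, and Trim2, at 90.6 in D351 and 232.1 in D16, were lower in D351. Trim59 read 92.5 in D351 and 214.1 in D16. Trim46 read 48.5 in D351 and 16.2 in D16, so its fold is a bound. With 18 measured genes and 1 array per clone, the share is not shown to be a trait of the family. How much the probe sets of related Trim genes read each other's transcripts was not tested.

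A further 7 probe sets carry several symbols that include a Zfp gene, and no gene was named from them. Their signals lay between 2.0 and 114.3 in D351 and between 9.3 and 114.2 in D16, with 4 measured and 0 past 2-fold.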
